A study of Homo sapiens with 4 samples.

Results

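The voltage-gated sodium channel alpha subunits examined here were SCN1A, SCN2A, SCN3A, SCN4A, SCN7A, SCN8A, SCN9A, SCN10A and SCN11A. They were listed by name, not by any measured value, and all 9 were found among the 17217 genes that the array named. Their messages were measured in HEK293, a human embryonic kidney line transformed with adenovirus DNA and a common host for cloned receptors and channels. The 4 arrays formed 1 group of untreated cells in serum-containing medium. The methods describe a separate confluent plate and RNA extraction for each array. The study asked which signaling messages the line makes under basal conditions, so there was no second condition, and every comparison below was between a gene and a background level on the same array.

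An alpha subunit is the large pore-forming protein of the channel, built from homologous domains, each with a voltage sensor and a share of the pore. Opening of the pore on depolarization lets sodium ions into the cell and starts the action potential of neurons and muscle. Beta subunits are small membrane proteins with an immunoglobulin fold that modify gating and surface expression, and further partners anchor, traffic or remove the channel. SCN1A, SCN2A, SCN3A and SCN8A encode the channels best known from the central nervous system, SCN4A the channel of skeletal muscle, SCN9A, SCN10A and SCN11A the channels of peripheral sensory neurons, and SCN7A the atypical channel Nax, which is tied to sensing extracellular sodium.

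Each gene had a level, which is the log2 signal of its probes on an array. On each array the mean level plus 2 SD of 10 seminal protein genes, picked by the study as silent in these cells, gave the baseline. It lay at 9.47, 9.94, 10.69 and 10.32 on replicates 1 to 4. The distance is the level minus the baseline, in log2 units, and a gene was called detected by the study's rule where its mean distance over the 4 arrays was above 0. Levels correlated between arrays with r from 0.949 to 0.977 across genes, which are not independent replicates. As a second background, 364 olfactory receptor genes were read on the same arrays, of which 1 was called detected. Probes differ in affinity, so the order of the genes is an order of signals over background and not of message copies. In RNA from a whole culture, fewer cells with a message and less message per cell cannot be told apart.

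SCN9A, the channel Nav1.7 of nociceptors, was the alpha subunit called detected. Its level was 10.67, 11.79, 11.30 and 11.39 on replicates 1 to 4, at distances of 1.20, 1.86, 0.61 and 1.07 above the baseline. It lay above the baseline on 4 of 4 arrays and above all 364 olfactory receptor genes on each of them. The mean distance was 1.18 ± 0.52 log2 units (SD, n = 4), with an adjusted p of 0.000919 in limma's one-sided test over all 17217 genes. Its level stood at the 52.1, 64.7, 59.2 and 61.3 percentile of all genes on the same arrays, so that it was a message of middling signal in the line. With a baseline of mean plus 3 SD the mean distance of SCN9A was −0.13, below the threshold.

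The call for SCN9A was 1 of 9 alpha subunits, or 11.1%, where 52.7% of all genes were called detected. The same single gene was above the baseline on all 4 arrays, against 45.0% of all genes. It was also the single alpha subunit with an adjusted p under 0.05 in limma, against 45.9% of all genes. The median distance of the 9 genes was −3.46, where that of all genes was 0.26.

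SCN8A, which encodes Nav1.6, the main channel of the axon initial segment and of nodes of Ranvier in adult neurons, lay close to the baseline. Its level was 9.36, 10.12, 10.13 and 9.74, at distances of −0.11, 0.18, −0.56 and −0.58. It was above the baseline on replicate 2 alone, and its mean distance was −0.27 ± 0.37 (SD, n = 4), smaller than its own spread. By its rank it stood well above the olfactory receptors, with a level higher than 363, 362, 363 and 361 of the 364 genes and at the 41.2, 47.5, 46.6 and 43.7 percentile of all genes. Its call depended on the control genes. Of the 10 controls, AFG2A (formerly SPATA5) and SPATA13 lay at −0.13 ± 0.15 and −0.38 ± 0.19, next to SCN8A, while the other controls lay between −3.58 and −2.85. Without that pair the mean distance of SCN8A was 2.06, with an adjusted p of 2.02e-09 in limma. With a baseline from the olfactory receptors it was 1.82, with an adjusted p of 2.23e-07. Those baselines called 74.0% and 71.4% of all genes. Since that pair held the highest of the controls, leaving it out lowers the baseline for every gene, so the first of these p-values is no separate support for SCN8A.

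SCN4A, which encodes Nav1.4 of skeletal muscle, varied most between arrays. Its level was 7.48, 9.82, 8.31 and 8.89, at distances of −1.99, −0.12, −2.38 and −1.43. It was below the baseline on every array, nearest to it on replicate 2, with a mean of −1.48 ± 0.99 (SD, n = 4). It was higher than 340, 362, 352 and 359 of the 364 olfactory receptor genes. Without AFG2A and SPATA13 among the controls its mean distance was 0.85, with an adjusted p of 0.00504 in limma. Against the olfactory receptors it was 0.60, with an adjusted p of 0.0454. Those baselines called 74.0% and 71.4% of all genes. In these fits limma shared the error between genes, with a median standard error of 0.273 and 0.263. SCN4A had a level SD of 0.98, against a median of 0.42 over all genes. Its p-values therefore rest on a smaller error than its own spread gives. The level of SCN4A was higher on replicates 2 and 4 than on replicates 1 and 3. Of 76 listed genes, controls apart, 13 were split that way, SCN9A, CNTN1 and FGF11 among them. Another 19 were split the opposite way, NEFM and INA among them. Replicate spread alone also splits genes in these ways, and the share over all genes was not counted. Whether those array pairs stood apart was therefore not tested. The part of this split in the levels of SCN4A was not tested.

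The other 6 alpha subunits lay far below the baseline on every array, at distances between −4.12 and −2.22. SCN11A, which encodes Nav1.9 of sensory neurons, was the highest of them by mean. It had levels of 6.59, 6.67, 7.65 and 8.10 and a mean distance of −2.85 ± 0.45 (SD, n = 4). Its mean level exceeded that of 319 of the 364 olfactory receptor genes. The olfactory receptor median was itself higher on replicates 3 and 4, at 7.14 and 6.95, than on replicates 1 and 2, at 6.44 and 6.27, and the distances of SCN11A, −2.88, −3.27, −3.04 and −2.22, did not separate those arrays. SCN10A, which encodes Nav1.8 of nociceptors, had levels of 6.54, 6.18, 6.76 and 7.10 and a mean distance of −3.46 ± 0.46. Of the sensory channels, SCN9A was thus the highest of the 9 genes by mean distance and SCN11A the fourth. SCN10A came next by mean, but its gap of 0.05 to SCN2A was under the SD of that gap, 0.30.

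The 3 brain channels apart from SCN8A lay within the range of the olfactory receptors. SCN2A (Nav1.2, of excitatory neurons) had levels of 6.44, 6.01, 7.14 and 6.79 and a mean distance of −3.51 ± 0.37 (SD, n = 4). SCN1A (Nav1.1, of inhibitory interneurons) had levels of 5.81, 6.02, 7.86 and 6.65, and a mean distance of −3.52 ± 0.47. SCN3A (Nav1.3, most abundant in the developing brain) had levels of 6.15, 6.08, 6.57 and 7.16 and a mean distance of −3.62 ± 0.45. Their mean levels were above those of 133, 127 and 77 of the 364 olfactory receptor genes, so that by mean most of those genes gave more signal. Single arrays varied. On replicates 1 to 4 SCN2A exceeded 184, 83, 182 and 130 of them, SCN1A 13, 89, 323 and 73, and SCN3A 91, 110, 34 and 257. SCN7A had levels of 6.23, 5.83, 6.66 and 6.56, a mean distance of −3.78 ± 0.39, and a mean level above that of 10 olfactory receptor genes, the lowest of the 9. A message under the floor that the olfactory receptors give was not detectable on these arrays.

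**Figure D1:**
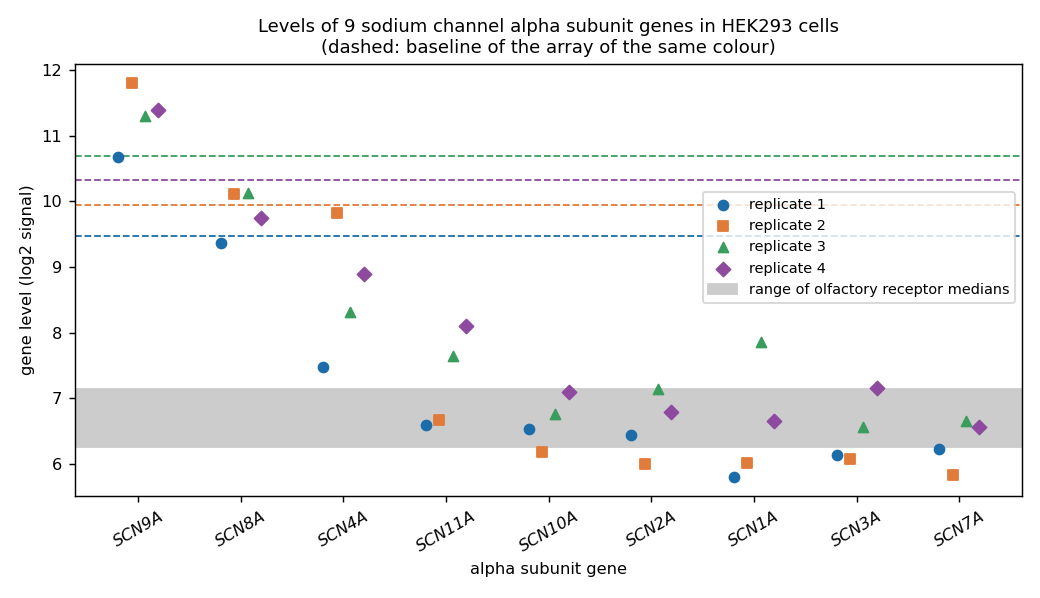
Level (log2 signal, vertical axis) of the 9 alpha subunit genes (horizontal axis, ordered by mean distance) on each of the 4 arrays. Dashed lines are the baselines of the arrays in the same colours and the grey band is the range of the olfactory receptor medians over the arrays, 6.27 to 7.14. SCN9A lies above its own array's line on all 4 arrays, SCN8A close to it, and SCN10A, SCN2A, SCN1A, SCN3A and SCN7A in or near the band.

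The 4 genes highest by mean kept their order among themselves on every array. On replicate 3, however, SCN1A lay above SCN11A, with a level of 7.86 against 7.65. SCN9A exceeded SCN8A by 1.45 ± 0.25 log2 units (SD, n = 4), SCN8A exceeded SCN4A by 1.21 ± 0.77, SCN4A exceeded SCN11A by 1.37 ± 1.19, and SCN11A exceeded SCN10A by 0.61 ± 0.43, each on 4 of 4 arrays. From SCN10A down the order of neighbours was not resolved, since each gene differed from the next by 0.16 or less, under the SD of that difference. Genes further apart in that order could still differ, and SCN10A and SCN2A each lay above SCN7A on every array. These gaps were not tested, since sign flips of 4 values give an exact one-sided p of 0.0625 at the lowest.

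The promoter windows of SCN9A, SCN8A and SCN2A are shown because these genes were above, at and far below the baseline. The RefSeq windows of assembly GRCh38.p14 run from 250 bases before to 50 bases after a transcription start. For each of these genes the bases ahead of the gene are printed, 5′ to 3′ on the gene's strand, with GC boxes (GGGCGG or CCGCCC, which are the same motif on the opposite strands) in capitals. The SCN9A stretch is chr2:166375988-166376194 on the minus strand, that of SCN8A is chr12:51590983-51591232 on the plus strand and that of SCN2A is chr2:165239164-165239413 on the plus strand.
SCN9A: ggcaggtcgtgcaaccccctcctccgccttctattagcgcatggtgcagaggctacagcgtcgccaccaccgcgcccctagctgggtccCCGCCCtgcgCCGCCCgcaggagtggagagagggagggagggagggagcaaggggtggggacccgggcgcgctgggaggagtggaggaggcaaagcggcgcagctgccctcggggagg
SCN8A: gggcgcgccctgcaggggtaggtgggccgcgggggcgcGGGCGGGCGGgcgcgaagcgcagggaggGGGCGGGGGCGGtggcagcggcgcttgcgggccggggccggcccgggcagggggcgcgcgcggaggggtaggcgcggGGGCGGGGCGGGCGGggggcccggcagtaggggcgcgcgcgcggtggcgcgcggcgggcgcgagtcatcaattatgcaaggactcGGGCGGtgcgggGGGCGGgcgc
SCN2A: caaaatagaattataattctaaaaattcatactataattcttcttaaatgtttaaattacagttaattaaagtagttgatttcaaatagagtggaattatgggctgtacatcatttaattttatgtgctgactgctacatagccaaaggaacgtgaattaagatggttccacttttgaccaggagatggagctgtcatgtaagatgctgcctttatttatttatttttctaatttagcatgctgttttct
The SCN9A stretch is GC-rich and holds 2 GC boxes, the SCN8A stretch is almost entirely G and C with 9 boxes, and the SCN2A stretch is rich in A and T with none.

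Windows were found for 7 of the 9 genes, 11 windows in all, with none used here for SCN3A and SCN4A. Over all 35097 windows the median GC content was 58.7%, the median number of CpG pairs was 14, and 44.9% held a GC box. SCN8A had the richest window of the family, at 84.0% GC with 52 CpG pairs and 10 GC boxes, followed by SCN9A at 73.3% GC with 28 CpG pairs and 2 boxes. SCN11A had a window of 65.7% GC with 23 CpG pairs and 2 boxes beside another of 48.7% GC with 2 CpG pairs. SCN7A likewise had a window of 62.7% GC with 11 CpG pairs and 2 boxes beside another of 41.3% GC with 0 CpG pairs. SCN10A (51.0% GC, 3 CpG pairs), the pair of windows of SCN1A (46.3% and 37.0% GC) and that of SCN2A (31.7% and 33.3% GC) lay below the median of all windows. The 4 family windows with a GC box thus belonged to SCN8A, SCN9A, SCN11A and SCN7A, so that a GC-rich window was seen both in the genes at or above the baseline and in genes far below it. A match of letters in a window is a description, and which start HEK293 cells use was not measured.

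In the RefSeq gene annotation 5 of the 9 genes, SCN1A, SCN2A, SCN3A, SCN7A and SCN9A, lie on chromosome 2, and SCN9A has SCN1A and SCN7A as its nearest family members. SCN9A was therefore above the baseline between family members at −3.52 and −3.78. SCN10A and SCN11A lie on chromosome 3, SCN8A on chromosome 12 and SCN4A on chromosome 17. A long noncoding RNA gene, SCN1A-AS1, overlaps the spans of both SCN1A and SCN9A. The labelling made DNA from both strands, so signal from a gene and from an overlapping RNA cannot be told apart where they share sequence. The array named no probes for SCN1A-AS1.

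Each alpha subunit was read by 3 probes, and the 27 probes gave 108 values on the 4 arrays, of which 17 were above the baseline. The first probe of SCN9A read 11.51, 12.14, 12.00 and 11.36 and the second 10.51, 12.09, 11.25 and 11.51, both above the baseline on 4 of 4 arrays. The remaining probe read 9.01, 10.82, 10.01 and 11.29, above the baseline on replicates 2 and 4. The call for SCN9A thus rested on more than a single probe, and the spread between its probes, 1.51 log2 units on average, was near the median of 1.68 over all targets.

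The probes of SCN8A disagreed. The first read 5.79, 6.32, 6.72 and 8.01, at the level of the olfactory receptors. The second read 9.90, 10.88, 9.54 and 9.76, above the baseline on replicates 1 and 2, and the last read 9.91, 10.42, 11.29 and 10.49, above it on 4 of 4 arrays. The mean range between the 3 probes was 3.93 log2 units, so the level of SCN8A was carried by 2 of its 3 probes.

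The second probe of SCN4A read 7.85, 10.82, 9.30 and 9.56, above the baseline on replicate 2, and no other probe of the gene was above it on any array. Its first probe read 7.26, 6.03, 7.54 and 7.48 and its last 7.26, 9.71, 7.09 and 8.92. The rise on replicate 2 was therefore seen by the second and last probes and not by the first. The 18 probes of the other 6 genes gave 72 values between 5.51 and 8.58, of which 0 were above the baseline.

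**Figure D2:**
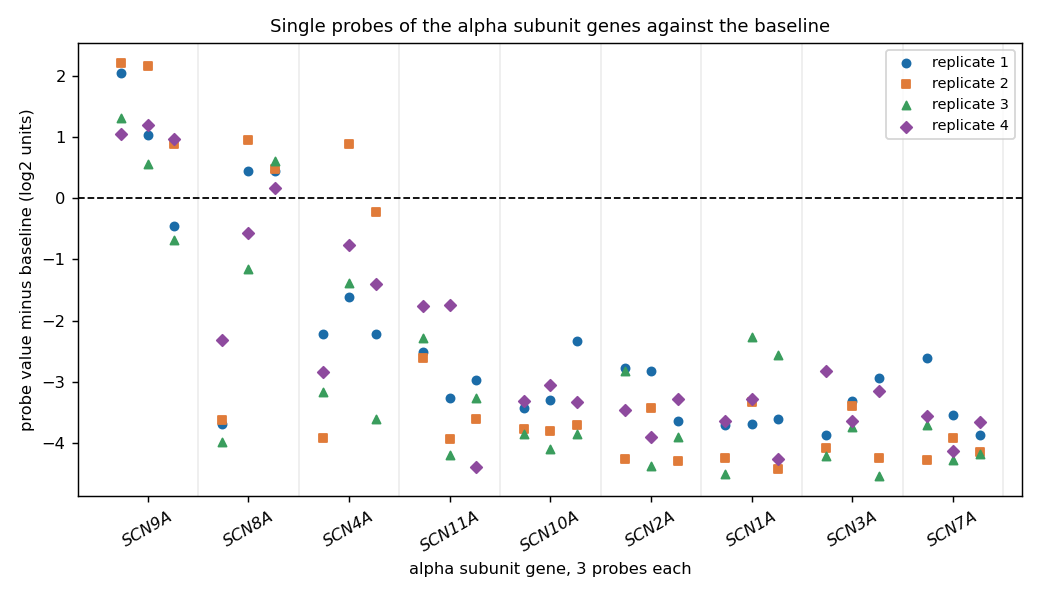
Value of each probe minus the baseline of its array (log2 units, vertical axis), for the 3 probes of each alpha subunit gene (horizontal axis) on the 4 arrays, with the baseline as the dashed line at 0. The probes above 0 belong to SCN9A, SCN8A and SCN4A, and the first probe of SCN8A lies with the genes far below the baseline.

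The number of alpha subunits called detected moved with the height of the baseline, while the gaps between the genes stayed the same because a baseline shifts all genes on an array alike. The mean baseline was 10.10 under the study's rule. It was 11.42 with mean plus 3 SD, 8.79 with mean plus 1 SD, 8.40 with the median plus 2 scaled median absolute deviations, 8.02 from the olfactory receptors, 8.0 from Y-linked genes and 7.78 without AFG2A and SPATA13. The highest of these called 0 of 9 alpha subunits and 39.1% of all genes, and mean plus 1 SD called SCN9A and SCN8A and 64.3% of all genes. The lowest 4 called SCN9A, SCN8A and SCN4A, 3 of 9, and from 67.7% to 74.0% of all genes. SCN11A, the next gene, stayed below 0 at each of these baselines, at −0.53 when it was nearest.

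**Figure D3:**
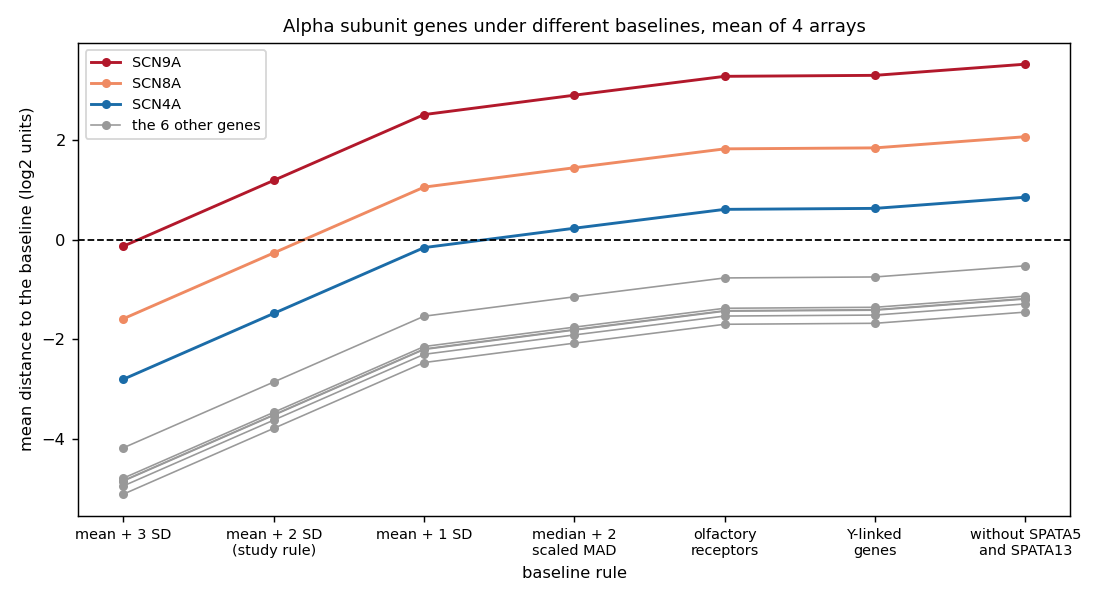
Mean distance to the baseline over 4 arrays (log2 units, vertical axis) of the 9 alpha subunit genes under 7 baseline rules (horizontal axis, from the highest baseline to the lowest). The line of SCN9A is below 0 with mean plus 3 SD alone, those of SCN8A and SCN4A cross 0 as the baseline falls, and the 6 grey lines stay below it.

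Of the beta subunits, which associate with the alpha subunits, SCN2B, SCN3B and SCN4B were read here, and 0 of 3 were called detected under the study's rule, against 52.7% of all genes. All 3 were below the baseline on every array. SCN4B was at −0.54 ± 0.43 (SD, n = 4) and SCN3B at −1.86 ± 1.06, with −0.34 on replicate 1 and values between −2.78 and −2.12 on the other arrays. SCN2B was lowest, at −2.62 ± 0.77. These calls too depended on the control genes. Without AFG2A and SPATA13, or with olfactory or Y-linked controls, 2 of 3 were called, against 71.4% to 74.0% of all genes.

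The FGF homologous factors are intracellular proteins that bind the carboxyl terminus of the alpha subunit and set its availability. FGF13 was above the baseline by 2.46 ± 0.76 and FGF11 by 1.35 ± 0.77 (SD, n = 4), both on 4 of 4 arrays. FGF12 was at −1.60 ± 0.69 and FGF14 at −3.18 ± 0.50. The 2 of 4 called detected was a share near the 52.7% of all genes.

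Of the membrane anchors and adhesion partners, 4 of 7 were called detected, each on all 4 arrays, near the 52.7% and 45.0% of all genes. The anchoring proteins ANK3 (ankyrin G, which holds sodium channels at the axon initial segment) and ANK2 (ankyrin B) were at 2.15 ± 0.46 and 2.05 ± 0.52 (SD, n = 4). The adhesion molecules CNTN1 and NRCAM were at 2.51 ± 0.96 and 2.09 ± 0.73. NFASC, the neurofascin of nodes and initial segments, SPTBN4, the beta IV spectrin that joins ankyrin G to actin, and CNTN2 were below, at −2.05 ± 0.62, −2.35 ± 0.20 and −2.91 ± 0.23.

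Messages for trafficking, turnover and calmodulin were mostly well above the baseline, with 7 of 8 called detected, each of them on all 4 arrays, against 52.7% and 45.0% of all genes. CALM3 and CALM2, whose product calmodulin binds the channel's carboxyl terminus, were at 5.37 ± 0.68 and 5.02 ± 0.81 (SD, n = 4). DPYSL2 (CRMP2), a partner of Nav1.7 in its delivery to the surface, was at 4.72 ± 0.69, and S100A10 (p11), a partner of Nav1.8, at 4.22 ± 0.78. NEDD4L, a ubiquitin ligase that removes sodium channels from the membrane, was at 2.52 ± 0.70, while its relative NEDD4 was at −0.06 ± 0.87, above the baseline on replicates 1 and 3. None of the 4 matched genes of the sodium leak channel complex was called detected, with NALF2 at −0.03 ± 0.29, NALCN, its pore, at −1.45 ± 1.41, UNC80 at −1.73 ± 0.73 and UNC79 at −3.41 ± 0.45. Without AFG2A and SPATA13, or with olfactory or Y-linked controls, 3 of the 4 leak channel genes were called, against 71.4% to 74.0% of all genes. Under the study's rule 13 of 26 genes over these 5 partner groups were called detected, and 13 by limma, a share near that of all genes.

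**Figure D4:**
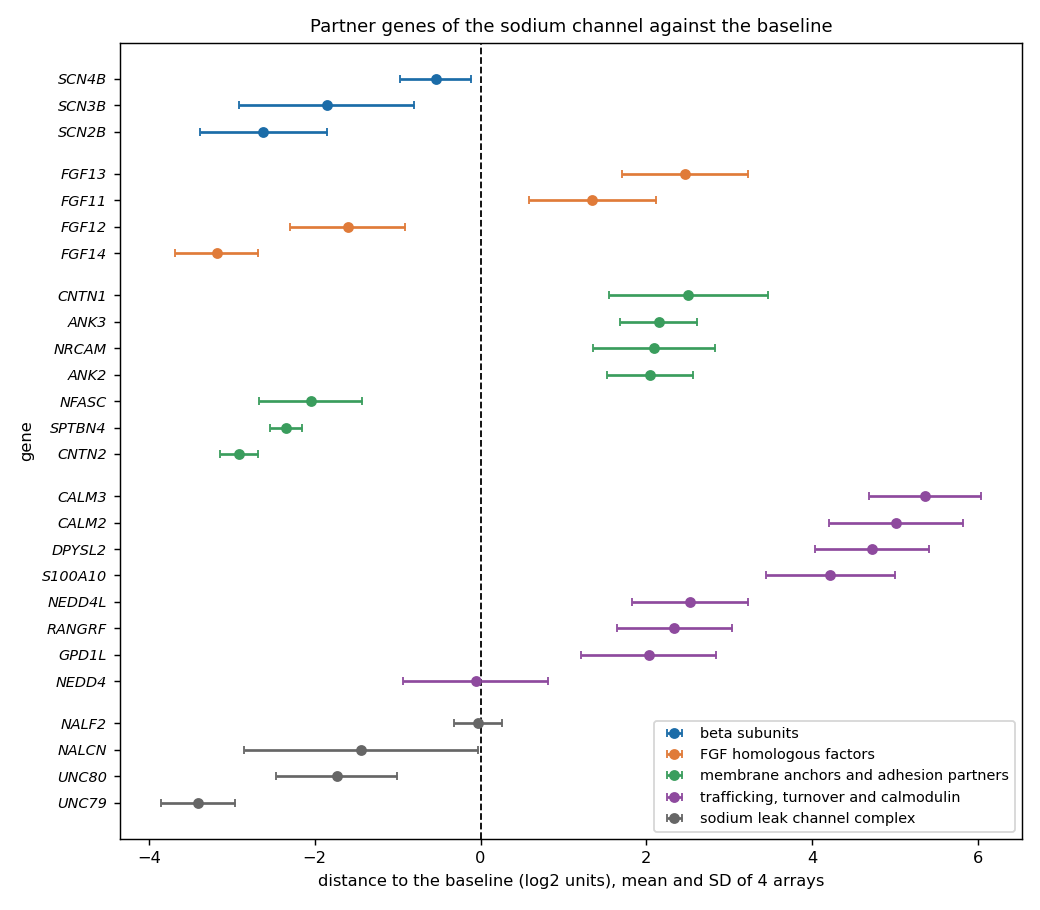
Distance to the baseline (log2 units, horizontal axis) of 26 partner genes in 5 groups (vertical axis, colours), as mean and SD of 4 arrays, with the baseline as the dashed line at 0. The trafficking and calmodulin genes lie furthest to the right, up to 5.37 for CALM3, and the beta subunits and the leak channel complex lie at or to the left of the line.

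The cell types in which the alpha subunits are best known were read through their markers, each count to be set against the 52.7% of all genes called detected. Skeletal muscle markers, beside SCN4A, were called in 0 of 9 cases, with mean distances from −3.49 to −1.18. With the olfactory or Y-linked controls, or without AFG2A and SPATA13, under which SCN4A was above the baseline, 2 of 9 were called, ACTA1 and MYOD1. Sensory neuron markers, beside SCN9A, SCN10A and SCN11A, were called in 2 of 5 cases, POU4F1 at 0.78 ± 1.03 and TRPV1 at 0.25 ± 0.49 (SD, n = 4), and 0 of 5 were above the baseline on all 4 arrays. PRPH, which marks peripheral neurons, was at −0.16 ± 0.58, the transcription factor ISL1 at −0.17 ± 0.60 and the neuropeptide gene CALCA at −3.53 ± 0.40. The sensory count ran from 0 with mean plus 3 SD to 4 with the lower baselines. Neuronal markers were called in 4 of 11 matched cases, the neurofilament gene NEFL at 4.01 ± 0.56, INA at 2.41 ± 1.04, TUBB3 at 1.59 ± 0.97 and NEFM at 0.66 ± 3.08. NEFM was at 4.103, −1.619, 2.401 and −2.238, above the baseline on replicates 1 and 3 and far below it on the other two, with a limma adjusted p of 0.0644. The synaptic genes SYN1 and SNAP25 were at −1.51 ± 0.83 and −1.40 ± 0.60, MAP2 at −0.34 ± 1.40, and STMN2, ELAVL3, ELAVL4 and DCX, which mark young or differentiating neurons, between −3.16 and −2.91. Kidney epithelial and HEK293 markers were called in 4 of 6 cases, led by VIM at 5.26 ± 0.64 and KRT8 at 4.80 ± 0.66, while the kidney lineage factors PAX2 and LHX1 were at −1.63 ± 0.74 and −1.44 ± 1.01, below the baseline on every array. Both lists depended on the baseline. With each of the lowest 4 baselines, 6 of 6 kidney and HEK293 markers were called, PAX2 and LHX1 among them. The neuronal count was then 7 of 11, SYN1, SNAP25 and MAP2 among them. Those baselines called 67.7% to 74.0% of all genes. The share of these other cell programmes in the level of SCN9A was not tested.

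REST, a repressor that binds many neuronal genes outside neurons and whose known targets include sodium channel genes, was at 0.63, 1.48, 1.38 and 0.86, with a mean of 1.09 ± 0.41 (SD, n = 4). All 6 of 6 genes of its complex were called detected on all 4 arrays, against 45.0% of all genes, with RCOR1 at 2.11 ± 0.46 and SIN3A, HDAC1, HDAC2 and KDM1A between 4.53 and 5.06. Of the sodium pump, which removes the sodium that such channels admit, 4 subunits were read here and 3 were called detected, against 52.7% of all genes, with ATP1B3 at 4.28 ± 0.76, ATP1B1 at 3.70 ± 0.85 and ATP1B2 at 3.20 ± 0.61, while ATP1A4, the subunit of sperm, was at −2.43 ± 0.35.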

How the data were processed

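RNA of 4 replicate HEK293 cultures was measured on single-colour NimbleGen arrays with 3 probes per target. Per the study's methods, oligo(dT)-primed double-stranded cDNA was labelled with Cy3 through random primers, and scanned images were turned into probe intensities. The authors deposited log2 values, 1 per probe and array. The submitters' processing notes name RMA without its settings. Sorted values of replicates 1 and 2 matched, as did those of replicates 3 and 4, which is the form quantile normalization within those pairs gives. Such scaling fixes each array's overall distribution, so calls and tests used distances within an array, and levels set side by side across arrays are descriptions.

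Accessions in the probe names were matched to a RefSeq gene table (GRCh38.p14), naming 17217 genes. Linear probe values were averaged per target before taking log2, and targets were averaged per gene. Distances to the study's baseline (10 of its 11 control genes matched, PYY2 not) were tested with limma 3.58 in R 4.3, one-sided, with Benjamini-Hochberg adjustment at 0.05 over all genes. The main fit gave all genes 1 common standard error of 0.351, smaller than the spread of genes such as SCN4A gives. Fits with other baselines shared the error between genes in part or in full. A shift of the baseline moves all genes on an array together, and the error of the baseline itself did not enter. The adjusted p-values therefore understate the uncertainty. The fit was also run on simulated data with independent noise for each gene. Those data held no shared shift or error of the baseline, so that run cannot show how large the understatement is. The number of arrays limits the precision. The members and lists were chosen with earlier results of these data known, and every gene of the lists could be named. The lists covered beta subunits, FGF homologous factors, anchors, trafficking, the leak channel complex, sodium pump, REST complex and markers of 4 cell programmes. Some genes of these lists are not reported here. NALF1 and RBFOX3 were not matched. Alternatives covered the probe summary, the baseline, the arrays used, normalization and the call. Spot background and probe sequences were not used here.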

Additional observations from a re-analysis of the deposited data

Results flagged for a closer look

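Of 85 sets of values over the 4 arrays (distances of the listed genes other than the controls, and levels of the alpha subunits), 2 held 1 value far from the remaining 3 by Dixon's criterion (gap over range), and chance gives about 1 in 20. FGF14, an FGF homologous factor, was at −3.93 on replicate 2 and between −2.98 and −2.89 on the others, with a ratio of 0.912. CHRNA1, a muscle marker, was at −4.35 on replicate 3 and between −3.25 and −3.03 on the others, with a ratio of 0.836. Both genes were below the baseline on every array, and none of the 9 alpha subunits had such a value.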

How the results depend on the processing

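The 1 alpha subunit called detected became 2 with mean plus 1 SD and with replicates 1 and 2 alone, 0 with mean plus 3 SD, and 3 without SPATA5 and SPATA13, with olfactory or Y-linked controls and with the median plus 2 scaled MAD. It was 1 without each replicate in turn. Of the 26 partner genes, 13 were detected, 21 without SPATA5 and SPATA13 or with olfactory or Y-linked controls, and 13 to 15 without each replicate in turn. In that order of control sets, ending with the MAD, SCN4A was at 0.85, 0.60, 0.62 and 0.23 (limma adjusted p 0.00504, 0.0454, 0.0753 and 0.379) and SCN8A at 2.06, 1.82, 1.84 and 1.44. SCN8A was at 1.05 with mean plus 1 SD and at 0.037 (limma adjusted p 0.841) with replicates 1 and 2 alone. SCN9A was above 0 in 18 of 19 alternatives, from 0.96 to 1.38 without each replicate in turn, and at −0.13 with mean plus 3 SD. With replicates 1 and 3 alone it was at 0.91, with a limma adjusted p of 0.172. The 6 lower genes were above 0 in none of the 19.

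With mean plus 3 SD, REST fell to −0.23, POU4F1 to −0.54, NEFM to −0.66 and TRPV1 to −1.07. With median probe values TRPV1 was at −0.042, and with replicates 3 and 4 alone TRPV1 was at −0.076. NEFM was at −0.49 without replicate 1, up to 1.63 without replicate 4, and at −1.93 with replicates 2 and 4 alone. No paired analysis was possible because the 4 arrays form 1 group. Signal over background limits the low genes, and from SCN10A down the order of neighbours was not resolved. The causes of these changes were not tested, except that a baseline shifts all genes on an array alike.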
